A study of Arabidopsis thaliana with 22 samples.

Results

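Roots of Arabidopsis thaliana Col-0 that had been on agar without sulfate for 12 h were compared with roots that had been on agar with 1500 uM sulfate for the same time. The comparison rests on 4 of the 22 arrays of the series, chosen by their titles: 2 arrays of the 0 uM group and 2 of the 1500 uM group, lettered A and B in each. The plants of all groups were 10 days old per the labels, and no mutant or transgene is named. The remaining 18 arrays cover both media at 2, 4, 8 and 24 h and roots that were not transferred. Each of the 11 groups has 2 arrays. For the roots that were not transferred, called untreated below, the titles give 1500 uM sulfate at 0 h. The labels do not tell whether both arrays of a group stem from separate plants or cultures. The p-values thus reflect the spread between the arrays at hand, which may be technical. In such bulk samples, fewer cells of a type and less RNA per cell cannot be told apart.

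Roots take up sulfate, activate it with ATP sulfurylase and reduce it to sulfide, which is built into cysteine and from there into methionine and glutathione. In Arabidopsis much reduced sulfur is also held in glucosinolates, and the aliphatic ones are made from chain-elongated methionine. When sulfate runs short, this plant is known to raise uptake and glucosinolate breakdown, while repressors such as SDI1 and SDI2 lower aliphatic glucosinolate synthesis.

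Each value is a MAS5 probe set signal, in linear units that were scaled per array. Differences are the 0 uM group minus the 1500 uM group on a log2(signal + 11) scale, on which changes of dim probe sets come out too small. They were tested with limma over all 22746 probe sets that are not array controls, with the letter as a factor and all 22 arrays in the fit. Adjustment was by the Benjamini-Hochberg method over all of them, and an adjusted p under 0.05 counted as a call. Pair A means the array A of the sulfate-free group minus the array A of the replete group, and pair B likewise.

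The arrays agreed closely for most probe sets but differed at the top of the scale. Over probe sets, arrays A and B correlated with r of 0.987 within the sulfate-free group and within the replete group. Between media r was 0.99 in pair A and 0.985 in pair B, so arrays of the same group were not clearly closer. The differences of pair A and pair B correlated with r of 0.174 and had the same sign for 54.6% of probe sets. The median signal was 44.31 and 44.12 on the sulfate-free arrays and 44.10 and 44.55 on the replete arrays. The signal exceeded by the brightest 0.1% of probe sets was 2566 and 1910 on the sulfate-free arrays A and B, against 3115 and 3145 on the replete arrays. The value of 1910 was the lowest of the series, in which the other 21 arrays lay between 2126 and 3145. For the 100 brightest probe sets the median difference was -0.24 in pair A and -0.65 in pair B, and for the next 400 it was -0.10 and -0.30. After quantile normalization of the log2 values, the median difference of the 100 brightest was -0.0081. Lower values of bright genes are given below with their quantile-normalized difference, and the source of the gap at the top of the scale was not tested.

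**Figure D1:**
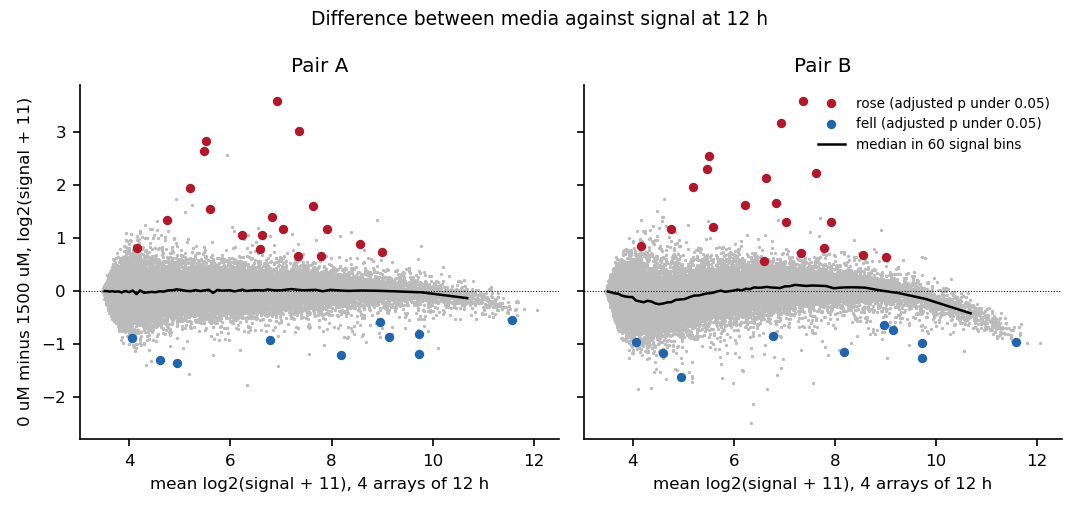
Difference between media at 12 h for every probe set, as log2(signal + 11) of the 0 uM array minus the 1500 uM array, against the mean of the 4 arrays, in pair A (left) and pair B (right). Red and blue points are the 19 rises and 10 falls, grey points all other probe sets, and the black line is the median in signal bins, which bends below 0 for bright probe sets, more so in pair B, where it also dips for dim ones.

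At 12 h, 19 probe sets were higher and 10 lower without sulfate, which is 0.0835% and 0.044% of those tested. Among the rises, 7 name a single gene and 12 are unnamed here. Among the falls, 3 name a gene and 7 are unnamed. For all 29 the signals of both media did not overlap. That alone is common, since both sulfate-free arrays lay above both replete arrays for 15.3% of all probe sets and below them for 19.5%. Differences ran between 0.68 and 3.38 for the rises and between -1.49 and -0.62 for the falls. Of the calls 13 rises and 4 falls exceeded 2-fold, against 20 rises and 14 falls over all probe sets, called or not. The lowest difference of all, -2.14, was not called. Over all probe sets the median difference was -0.01 with an SD of 0.21. In a fit that ignored the letter, 17 were higher and 4 lower, and all 21 were among the 29. The count of 29 was 10 without the sulfate-free array A, 8 without the sulfate-free array B, 14 without the replete array A and 8 without the replete array B.

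**Figure D2:**
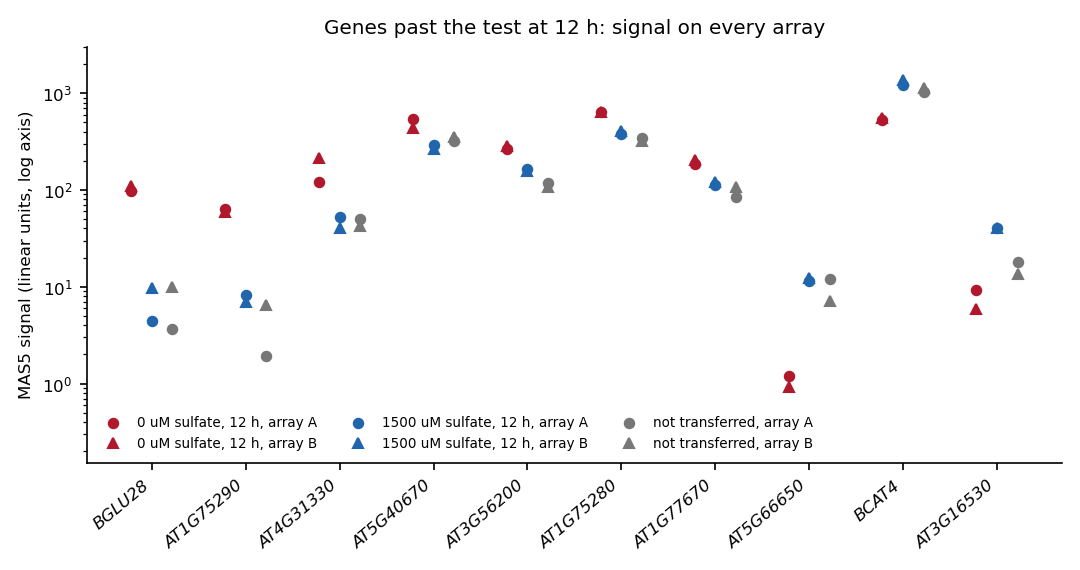
MAS5 signal (log axis) of the 10 named genes past the test, on the arrays A (circles) and B (triangles) of the 0 uM group at 12 h (red), the 1500 uM group at 12 h (blue) and roots that were not transferred (grey). In each gene the red and blue points do not overlap, and all signals of AT5G66650 are at or below 12.4.

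The largest rise of a named gene was that of BGLU28, a beta-glucosidase gene known to be induced by sulfur shortage and to act on glucosinolates. Its signal was 98.4 and 111 on the sulfate-free arrays, against 4.42 and 9.78 on the replete arrays and 3.65 and 9.88 in roots that were not transferred. Both sulfate-free arrays stood far above all the others, while the replete arrays lay in the range of the untreated ones. The difference was 2.69 (SE 0.23, limma adjusted p = 5.62e-05), with 2.83 in pair A and 2.55 in pair B. The replete signals lie below the 25th percentile of their arrays (11.52 and 13.51), and no detection call was used here, so they are not shown to be above background. The size depends on the constant added to the signal: it was 3.79 with 1 and 1.81 with 32, and the call held with both. It also held without any 1 of the 4 arrays, with adjusted p between 0.00148 and 0.00326.

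Both members of a neighbouring pair of genes related to isoflavone reductase rose, from very different levels. AT1G75290 had signals of 63.2 and 58.9 without sulfate, against 8.30 and 6.94 on replete medium and 1.94 and 6.46 in untreated roots. The groups were far apart and the 2 arrays of each medium close together, with a difference of 1.95 (SE 0.20, adjusted p = 3.8e-04) that was 1.94 in pair A and 1.96 in pair B. The replete signals were again below the 25th percentile of their arrays, and the difference was 2.85 with 1 and 1.23 with 32 in place of 11. AT1G75280, the gene next to it in the annotation, was bright in every group, with 643 and 640 without sulfate, against 381 and 408 on replete medium and 343 and 322 in untreated roots. It rose 1.61-fold (log2 0.69, SE 0.11, adjusted p = 0.0229). Whether their probe sets share targets was not tested. The call of AT1G75290 held without any 1 of the 4 arrays (adjusted p between 0.0102 and 0.0145), whereas that of AT1G75280 was lost without each of them (adjusted p between 0.149 and 0.271), with differences between 0.62 and 0.75.

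AT4G31330, whose product has no known role, rose 3.02-fold, with pairs that differed more than those of the other named calls. Its signal was 121 and 214 on the sulfate-free arrays A and B, against 52.5 and 40.2 on the replete arrays and 49.5 and 42.9 in untreated roots. All sulfate-free values lay above the rest, and the untreated values lay between the 2 replete ones. The difference was 1.59 (SE 0.24, adjusted p = 0.0145), from 1.05 in pair A and 2.14 in pair B. The adjusted p was 0.273 without the sulfate-free array B, 0.0606 without the replete array A and 0.378 without the replete array B.

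AT5G40670 encodes a homologue of cystinosin, which exports cystine from lysosomes in animals. Its signal was 540 and 432 without sulfate, against 288 and 265 on replete medium and 322 and 356 in untreated roots. Untreated roots lay between the media. The difference was 0.78 (SE 0.13, adjusted p = 0.0298), or 1.72-fold. AT3G56200, a putative amino acid transporter, had 265 and 283 without sulfate, against 164 and 157 on replete medium and 117 and 108 in untreated roots. Here both transferred groups lay above untreated roots. The difference was 0.74 (SE 0.13, adjusted p = 0.0298), or 1.67-fold.

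The smallest named rise was that of AT1G77670, which encodes a member of the pyridoxal phosphate dependent transferases. It had 185 and 203 without sulfate, against 114 and 119 on replete medium and 84.8 and 108 in untreated roots, a difference of 0.69 (SE 0.12, adjusted p = 0.0487). It stood just inside the threshold, and without the letter its adjusted p was 0.512. Without the letter AT5G40670 was not called either (adjusted p = 0.0668). With quantile normalization all 3 of these moderate rises missed the threshold, AT5G40670 and AT3G56200 with adjusted p = 0.0582 each and AT1G77670 with 0.092, at differences of 0.76, 0.69 and 0.63. Without limma's intensity trend these 3 and AT1G75280 were not called (adjusted p between 0.0575 and 0.0883). AT1G77670 also missed the threshold with a random block of time and letter (adjusted p = 0.12). Without each of the 4 arrays in turn the adjusted p was between 0.108 and 0.42 for AT5G40670, between 0.14 and 0.438 for AT3G56200 and between 0.165 and 0.591 for AT1G77670.

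**Figure D3:**
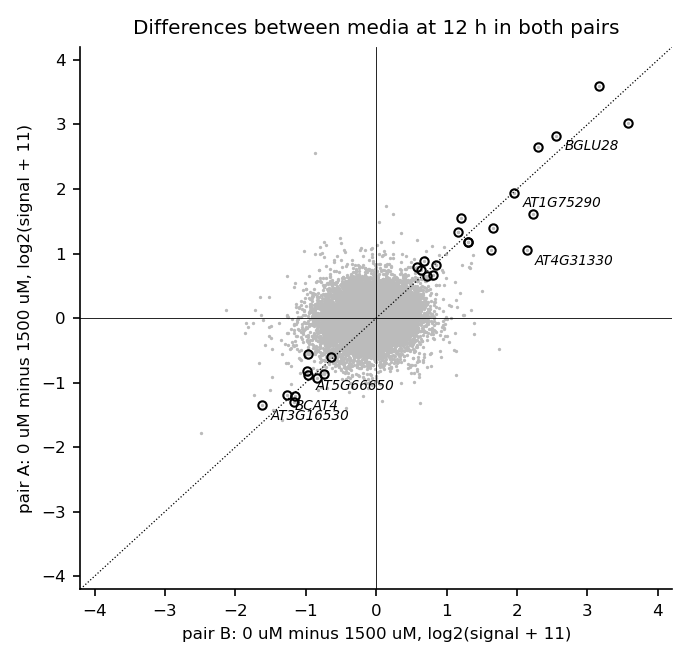
Difference between media at 12 h in pair A against pair B, as log2(signal + 11), for all probe sets (grey) and the 29 past the test (open circles). The 29 lie near the diagonal on which both pairs are equal, AT4G31330 below it with 1.05 in pair A and 2.14 in pair B. The test favours probe sets on which the pairs agree, so this is partly set by the selection. The other probe sets scatter around 0, and over all probe sets the pairs correlated with r of 0.174.

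BCAT4, which encodes the branched-chain aminotransferase that starts the elongation of methionine, was the clearest named fall. Its signal was 525 and 558 on the sulfate-free arrays, against 1217 and 1365 on the replete arrays and 1023 and 1130 in untreated roots. Both sulfate-free values were below every value of the other groups. The difference was -1.23 (SE 0.13, adjusted p = 3.8e-04), or 2.35-fold lower, and it was -1.20 in pair A and -1.27 in pair B. As BCAT4 is bright, the difference after quantile normalization was somewhat smaller, at -1.12 (adjusted p = 0.00143). The call held without any 1 of the 4 arrays, with adjusted p between 0.00723 and 0.0145.

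The other named falls belonged to dim probe sets. AT3G16530, a gene of the legume lectin family, had 9.24 and 5.83 without sulfate, against 40.73 and 40.76 on replete medium and 17.8 and 13.6 in untreated roots. Untreated roots lay between the media, so the replete arrays were the high ones here. The difference was -1.49 (SE 0.26, adjusted p = 0.0406). AT5G66650, of the family of the mitochondrial calcium uniporter, had 1.19 and 0.93 without sulfate, against 11.5 and 12.4 on replete medium and 12.0 and 7.07 in untreated roots. The difference was -0.93 (SE 0.15, adjusted p = 0.0229). The signals of AT5G66650 in all 3 groups lie near or below the 25th percentiles of the arrays, between 9.544 and 13.78.

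Both calls of these dim genes depended on the settings. With 32 in place of 11 the adjusted p was 0.059 for each, with differences of -0.88 and -0.41 for AT3G16530 and AT5G66650. With 1 the differences were -2.32 and -2.66, and both were called. Without the letter the adjusted p was 0.0668 for AT3G16530 and 0.424 for AT5G66650, and with the random block AT5G66650 had 0.0755. AT3G16530 was not called without any 1 of the 4 arrays (adjusted p between 0.171 and 0.498). AT5G66650 was called without the replete array A (adjusted p = 0.0263) but not without the sulfate-free array A (0.214), the sulfate-free array B (0.0992) or the replete array B (0.471).

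Probe sets that are unnamed here made up most of the calls. The 2 with the largest rises on the log2(signal + 11) scale are given, although with 1 added the difference of BGLU28, at 3.79, exceeded that of 248676_at, at 3.59. For 246884_at the signal was 360 and 405 without sulfate, against 19.8 and 35.4 on replete medium and 9.25 and 8.28 in untreated roots (log2 3.38, SE 0.40, adjusted p = 0.00141). For 248676_at it was 498 and 515, against 51.5 and 33.0 on replete medium and 11.3 and 14.6 in untreated roots (9.87-fold higher, adjusted p = 4.89e-05). In both, the sulfate-free arrays were far above the replete ones, which were themselves above untreated roots. Without the sulfate-free array A 246884_at had adjusted p = 0.0516.

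Among unnamed falls, 249866_at had 176 and 187 without sulfate, against 419 and 431 on replete medium and 384 and 426 in untreated roots (log2 -1.18, SE 0.10, adjusted p = 4.89e-05). The arrays of each group were close together, and both pairs gave nearly the same difference, -1.20 and -1.16. The signals of 250589_at were dim, at 4.99 and 4.55 without sulfate against 28.5 and 24.1 on replete medium (log2 -1.24, SE 0.23, adjusted p = 0.0487). Its difference depended on the constant, with -2.24 for 1 and -0.66 for 32, whereas 249866_at had -1.22 and -1.10. Without the letter it had adjusted p = 0.0576, with 32 added 0.0584, with quantile normalization 0.0816, and without each array in turn between 0.214 and 0.42. A further unnamed fall, singled out after its values were seen, is one of the brightest probe sets: 2549 and 2139 without sulfate, against 3743 and 4198 on replete medium. Its difference of -0.76 (adjusted p = 0.0165) became -0.17 (adjusted p = 1) with quantile normalization. The remaining 14 unnamed probe sets had differences between 0.68 and 2.47 where they rose and between -0.90 and -0.62 where they fell.

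In the gene lists, measured means that a probe set is annotated with that gene alone. Other listed genes may lie on probe sets that are unnamed here or that name several genes. Aliphatic glucosinolate synthesis was covered by 5 measured genes of 25 listed. Only BCAT4 passed the test among them, but all 5 differences were negative and in all 5 the sulfate-free arrays lay below the replete ones. Over all probe sets both sulfate-free arrays were below both replete arrays for 19.5%, and 11988 of 22746 differences were negative. The median difference of the 5 was -0.74, beside -0.01 over all probe sets. The list was drawn up with earlier results of these data known, so its direction is not independent evidence.

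GSTU20, a glutathione transferase tied to this pathway, had 191 and 255 without sulfate, against 357 and 515 on replete medium (log2 -0.92, SE 0.19, adjusted p = 0.102). AT2G25450, which encodes the side-chain hydroxylase GS-OH, had 710 and 577, against 1202 and 970 on replete medium (log2 -0.74, SE 0.15, adjusted p = 0.0939), and its difference was -0.64 after quantile normalization. AT2G31790, the glucosyltransferase UGT74C1, had 123 and 130, against 178 and 239 (log2 -0.66, SE 0.13, adjusted p = 0.0889). These 3 genes missed the threshold over all probe sets, and each passed it when dim probe sets were left out (adjusted p = 0.039, 0.0375 and 0.0464). Without the letter their adjusted p was 0.936, 0.185 and 0.936, and with the random block 0.311, 0.0284 and 0.331. In the fit of the 4 arrays of 12 h alone it was 0.00722, 0.0767 and 0.0825. In untreated roots their signals were 199 and 201, 540 and 740, and 145 and 153, so the replete arrays stood above untreated roots in all 3. UGT74B1, the glucosyltransferase of core glucosinolate synthesis and the single measured gene of indole glucosinolate synthesis, differed by -0.28 (SE 0.12, adjusted p = 0.736), and by -0.14 without the sulfate-free array B.

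**Figure D4:**
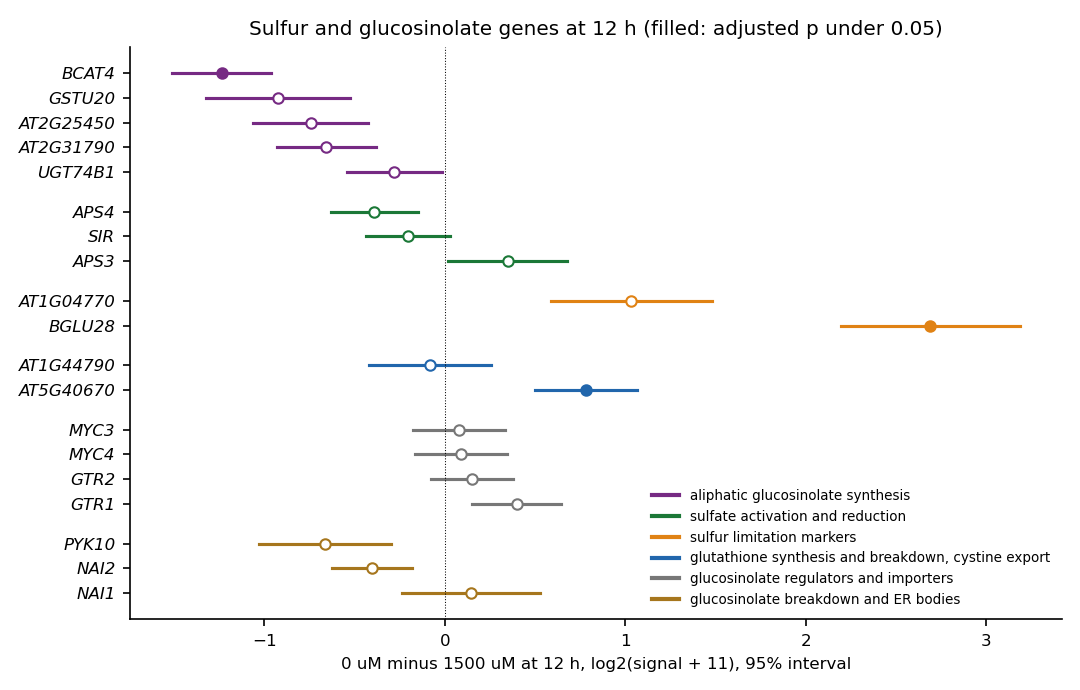
Difference between media at 12 h (0 uM minus 1500 uM, log2(signal + 11)) with its 95% interval from limma, for the measured genes of 6 lists, coloured by list. BCAT4, BGLU28 and AT5G40670 (filled) passed the test. All 5 genes of aliphatic glucosinolate synthesis lie below 0, and those of sulfate activation and reduction lie on both sides.

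Of the sulfur limitation markers, 2 of 11 listed genes were measured on named probe sets. Besides BGLU28 this was AT1G04770, known as SDI2, a repressor of aliphatic glucosinolate synthesis. Its signal was 531 and 409 without sulfate, against 241 and 204 on replete medium and 77.8 and 103 in untreated roots. The 3 groups did not overlap, and roots on replete medium were already above untreated roots. The difference of 1.03 (SE 0.21, adjusted p = 0.102) missed the threshold, with 1.11 in pair A and 0.96 in pair B. It passed when dim probe sets were left out (adjusted p = 0.0375) and with the random block (adjusted p = 0.0232) and in the 4 arrays of 12 h alone (adjusted p = 0.00403), while without any letter it had adjusted p = 0.194. Its 95% interval, between 0.59 and 1.48, does not include 0, but it is not adjusted for the number of probe sets.

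Sulfate activation and reduction had 3 measured genes of 13, and 0 passed. Over all probe sets 0.0835% were called rises and 0.044% falls, so 0 among so few genes says little about the list. The ATP sulfurylase gene APS4 had 809 and 973 without sulfate, against 1154 and 1177 on replete medium (log2 -0.39, SE 0.11, adjusted p = 0.434), and its difference was -0.24 after quantile normalization. Untreated roots, at 1582 and 1589, were above both. APS3, another ATP sulfurylase gene, differed the other way, with 92.6 and 123 against 62.3 and 105 (log2 0.35, SE 0.16, adjusted p = 0.741). It was 0.17 without the replete array A and 0.53 without the replete array B. The groups of APS3 overlapped, and those of the sulfite reductase gene SIR did as well (log2 -0.20, SE 0.11, adjusted p = 0.822, and -0.12 after quantile normalization). AT1G44790, an enzyme gene of glutathione breakdown, differed by -0.08 (SE 0.16, adjusted p = 0.983). It and AT5G40670 were the 2 measured genes of 10 listed for glutathione and cystine. None of the 12 listed sulfate transporter genes or the 12 of cysteine synthesis lies on a probe set named here, so neither step was analysed.

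Glucosinolate regulators and importers had 4 measured genes of 12, and 0 passed, beside 0.0835% called rises and 0.044% called falls over all probe sets. GTR1, a glucosinolate importer gene, had the largest difference, with 143 and 150 without sulfate, against 98.3 and 120 on replete medium (log2 0.40, SE 0.12, adjusted p = 0.434). GTR2, the related importer gene, differed by 0.15 (SE 0.11), and the transcription factor genes MYC3 and MYC4 by 0.08 (SE 0.12) and 0.09 (SE 0.12). Genes of endoplasmic reticulum bodies, which hold beta-glucosidases in roots, included 2 very bright ones. PYK10, the main beta-glucosidase of these bodies, had 3105 and 2041 without sulfate, against 3972 and 4016 on replete medium (log2 -0.66, SE 0.17, adjusted p = 0.281). Its difference was -0.35 in pair A and -0.97 in pair B, and -0.10 after quantile normalization. NAI2, needed to form the bodies, differed by -0.40 (SE 0.10, adjusted p = 0.271), and by -0.13 after quantile normalization. NAI1, their bHLH regulator, differed by 0.14 (SE 0.18), and by -0.10 without the sulfate-free array A.

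The other lists held few measured genes, and 0 of them passed, beside 0.0835% called rises and 0.044% called falls over all probe sets. GSTU27 and GSTU25 differed by 0.41 (SE 0.12, adjusted p = 0.434) and 0.59 (SE 0.31, adjusted p = 0.82), so that of 3 measured glutathione transferase genes 2 had higher and 1, GSTU20, had lower values. In methionine metabolism the largest difference among 3 genes was that of MGL, which encodes methionine gamma-lyase (0.28, SE 0.40), and among 5 auxin response genes it was that of IAA29 (-0.27, SE 0.19, adjusted p = 0.899). All 5 auxin genes had negative differences, between -0.27 and -0.08, as had 11988 of all 22746 probe sets. Of the 5, GH3.3, IAA29 and LBD29 were dim, with 12 h signals at or below 6.94, 18.1 and 19.1. No gene of the lists for jasmonate and for nitrogen, phosphate and iron supply was on a named probe set.

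Of the markers of cell types, 6 of 29 listed were measured on named probe sets, and 0 passed the test. With 0.0835% called rises and 0.044% called falls over all probe sets, 0 of 6 does not show that cell types were unchanged. The differences of 5 of the 6 were negative, and for EXPA18, AT1G62500 and LHCB4.1 both sulfate-free arrays lay below both replete arrays, as for 19.5% of all probe sets. Summed over both measured root hair genes, EXPA7 and EXPA18, the signal was 220 and 189 without sulfate, against 278 and 218 on replete medium. EXPA7 differed by -0.17 (SE 0.20) and EXPA18 by -0.32 (SE 0.21, adjusted p = 0.873). AUR1 of dividing cells differed by 0.02 (SE 0.10), and the cortex gene AT1G62500, at signals of 9.21 to 16.7, by -0.25 (SE 0.19). For green tissue, LHCB4.1 and RCA together gave 124 and 145, against 164 and 150 on replete medium, with -0.24 (SE 0.20) for LHCB4.1 and -0.16 (SE 0.16) for RCA. Vascular markers were not measured on named probe sets. Their part in the results was not tested.

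With the same fit 9 probe sets passed at 8 h (0.0396%), 29 at 12 h and 72 at 24 h (0.317%). The order of 8 and 12 h depended on the fit, since the random block called 50 at 8 h, 38 at 12 h and 73 at 24 h. Unadjusted p-values under 0.05 numbered 1994, 1469 and 1129 at these times, the opposite order to the calls. When nothing changes a share of 0.05 of the 22746 probe sets falls under it, which is close to the count at 24 h. Of the 29 calls of 12 h, 4 were also calls at 8 h, which is 13.8% of the 12 h calls and 44.4% of the 8 h calls. At 24 h 21 of the 29 passed, which is 72.4% of the 12 h calls and 29.2% of the 24 h calls. These times used other arrays, but the estimate of spread is shared. At 24 h 17 of the 19 rises and all 10 falls had the same sign as at 12 h, and for 15 rises and 6 falls the 24 h difference was the larger. The share of all probe sets with the same sign at both times was not counted, so these counts have no baseline here.

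For BGLU28 the difference was 0.11, 0.17, 0.99, 2.69 and 4.29 in the order 2, 4, 8, 12 and 24 h. It was not called at 8 h (adjusted p = 0.172). AT1G75290 differed by 0.35, 0.39, 0.52, 1.95 and 2.32. AT3G56200 was the named gene called at 8 h too, with 0.82 there (adjusted p = 0.0335), against 0.74 at 12 h and 1.34 at 24 h. AT3G16530 differed by -0.92 at 8 h, -1.49 at 12 h and -0.09 at 24 h, and AT5G66650 by -0.33, -0.93 and -0.53. Neither was called at 24 h.

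The change of the difference with time was tested directly. Between 12 and 24 h, 3 probe sets passed (0.0132%). BCAT4 was the named one, with a 24 h difference of -2.68, against -1.23 at 12 h, a change of -1.45 (SE 0.18, adjusted p = 0.00728). This call was lost without the letter (adjusted p = 0.148) and on leaving out any single array of 12 h, the only arrays left out in turn. The adjusted p was then 0.0637 and 0.0543 for the sulfate-free arrays A and B left out, and 0.0654 and 0.0806 for the replete arrays A and B left out. The change itself stayed between -1.50 and -1.39 in those fits. For BGLU28 the change of 1.60 had adjusted p = 0.461, and for AT3G16530 that of 1.39 had adjusted p = 0.76, so neither is shown to differ between these times. Between 8 and 12 h no probe set passed in limma with the letter (0%), where 1174 had an unadjusted p under 0.05. That count is close to the share of 0.05 of all 22746 probe sets that falls under it when nothing changes. The fits without the letter, with the random block and with 32 added each called 1. The smallest p-value belonged to AT1G18310, singled out for it, whose difference was -0.89 at 8 h and -0.03 at 12 h (adjusted p = 0.066 for the change). Its signals at 12 h were at or below 1.04.

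**Figure D5:**
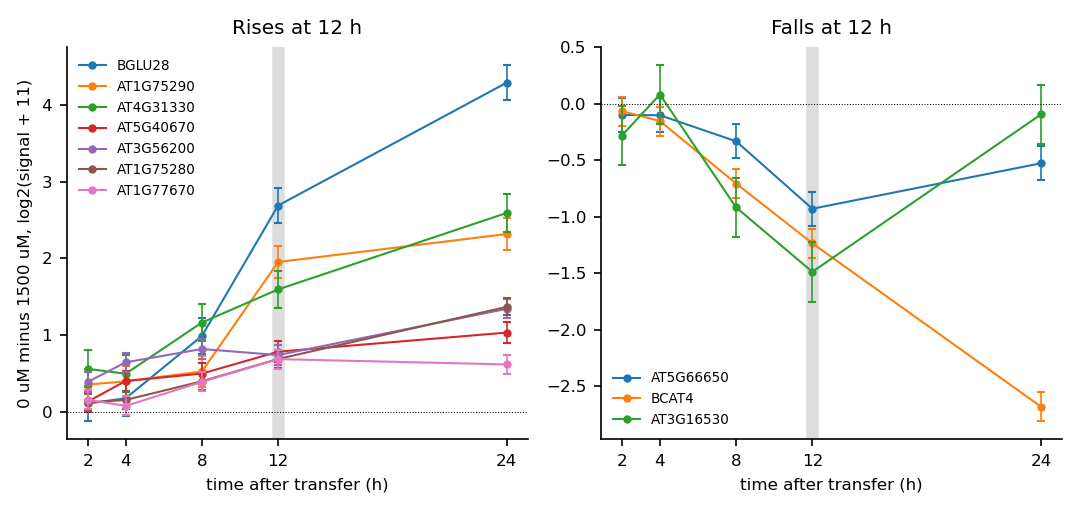
Difference between media (0 uM minus 1500 uM, log2(signal + 11)) with its SE from limma at 2, 4, 8, 12 and 24 h for the 7 rises (left) and 3 falls (right) named at 12 h, which is shaded. BGLU28 and BCAT4 went further at 24 h, to 4.29 and -2.68, whereas AT3G16530 was at -0.09 there.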

How the data were processed

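The deposited table holds probe set signals of the 22 arrays as linear intensities, which the submitters' processing notes credit to MAS5. Its version, the scaling target and a genome build are not given here. The authors' values had a 2% trimmed mean of 100.01 on every array, so they were already scaled, and no further normalization was applied. Scaling to a common mean does not equalise the brightest signals. Arrays carry no counting depth, and their number limits the precision.

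Of 22810 probe sets, 64 controls were left out. Signals were put on a log2(signal + 11) scale and fitted with limma 3.58.1 in R 4.3.3 (lmFit, eBayes with an intensity trend; 10 residual and 4.94 prior degrees of freedom; median SE of the 12 h difference 0.164), with 11 groups and the letter A or B as a factor. The letter was kept in the fit because the comparison is defined by arrays paired by letter. The labels do not say what the letter stands for. Contrasts were 0 uM minus 1500 uM at 12 h, and this difference against those at 8 and 24 h. Tested on simulated data over 22746 probe sets for the 12 h comparison, the fit called 74 of 100 changed by log2 1. It called 100 of 100 changed by log2 2, and 10 unchanged ones. The simulated noise was normal and independent between arrays apart from the letter, with no gap at the top of the scale. It thus cannot show how the test behaves where the real arrays depart from this.

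The platform annotation names 1 gene for 13513 probe sets, several for 503 and none for 8730. Symbols of 13436 were updated through RefSeq's gene table (TAIR10.1), and 77 kept the annotation's name. Sequences were not used here, and coordinates only to place genes in order along the chromosome. The 19 gene lists held 214 genes, of which 35 were measured, meaning that a probe set names that gene alone. The other listed genes may lie on probe sets with no name or several, and were not analysed as list members. The genes named are up to 15 rises and up to 15 falls past the threshold, by size, on probe sets with 1 gene, all measured members of the sulfur and aliphatic glucosinolate lists, called or else most different members of other lists, 2 unnamed rises and 2 unnamed falls, and genes past the time contrasts. Other members of these lists, a bright unnamed probe set and AT1G18310 were added after their values were seen. The comparison and the lists were chosen with earlier results of these data known. The alternatives were no letter, a random block of time and letter, a filter on dim probe sets, other constants, quantile normalization, no trend, leaving out each 12 h array, and the 4 arrays of 12 h alone.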

Additional observations from a re-analysis of the deposited data

Results flagged for a closer look

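The difference between media changed between 12 and 24 h for 3 probe sets by limma's test of that change. BCAT4 changed by -1.45 (SE 0.18, adjusted p = 0.00728), a call that was lost without the letter and without each array of 12 h. The unnamed 249866_at changed by -1.33 (SE 0.14, adjusted p = 0.00201), with differences of -2.51 at 24 h and -1.18 at 12 h, and this call held without the letter (adjusted p = 0.0096) and without any 1 of the 4 arrays of 12 h (adjusted p between 0.0207 and 0.0306). A further unnamed probe set changed by 1.23 (SE 0.15, adjusted p = 0.00728), with differences of 1.22 at 24 h and -0.02 at 12 h, where its signals of 290 and 235 without sulfate overlapped those of 270 and 259 on replete medium. Its call was lost without the letter (adjusted p = 0.0834), without the sulfate-free array B (0.0775), without the replete array A (0.0611) and without the replete array B (0.0806).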

How the results depend on the processing

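The letter was supported by the data only in part: over all 55 pairs of groups the A minus B differences correlated with r between -0.022 and 0.481, 52 of them over 0.1, and between the media at 12 h r was 0.183. Without this replicate block 21 probe sets were called at 12 h and with the random replicate block by time and letter 38, against 29. The filter on dim probe sets gave 44 (23 rises, 21 falls; 21 of the 29 among them, and 13648 probe sets tested), and the 4 arrays of 12 h alone, paired by letter, 45 (22 rises, 23 falls; 21 of the 29). Leaving out 1 array of 12 h gave 8 to 14. In those fits the lone array of a group is assumed to vary like the other groups. In every alternative that tested them 7 of the 29 were called, of which BGLU28, AT1G75290 and BCAT4 are named. Calls for a change between 8 and 12 h numbered 1 without the letter, with the random block and with 32 added, against 0. Those between 12 and 24 h numbered 1 without the letter, 5 with the filter, 5 with 32 added, and 1 to 2 without an array of 12 h, against 3. No called named result changed sign. Of uncalled ones, AUR1 was -0.0269 with quantile normalization, and leaving out 1 array gave -0.15 to 0.71 for MGL (below 0 without the sulfate-free array B), -0.0456 to 0.0896 for AUR1 (below 0 without the array A of either medium) and -0.186 to 0.0225 for AT1G44790 (above 0 without the array B of either medium), and -0.0971 to 0.385 for NAI1 (below 0 without the sulfate-free array A). The causes were not tested beyond what the fewer arrays or probe sets show. With 2 arrays a group precision is limited, and dim signals are not shown to be above background.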
